A study of Mus musculus with 18 samples.

Results

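Collagens, laminins and the proteins that fold, link and crosslink them were examined in RNA from whole mouse cortex. Members were the genes whose symbol names a collagen, laminin, fibulin, fibrillin or emilin chain, Nid1, Nid2, Hspg2, Pxdn, Agrn, Sparc, Fn1, or a lysyl oxidase, collagen hydroxylase or the collagen chaperone Serpinh1. They were picked by a rule on names and not on their values, although earlier results of these data were known. Of the 13784 genes tested, 72 were found. A single match, Col4a3bp, encodes a ceramide transfer protein and is no collagen. It is counted among the 72 because the name rule takes it. Of 88 genes listed by role, 17 were not among the genes analysed here, including Col2a1, Col4a3, Col4a4, Lox, Loxl1, Loxl2 and Loxl4.

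The study set controls beside mice in which Chd8, a chromatin remodeller, was deleted in astrocytes only (conditional knockout, cKO), each with or without lipopolysaccharide (LPS), a bacterial cell wall component that triggers innate immunity. Saline was given to 4 controls and 4 cKO animals. LPS, at 5 mg/kg into the abdomen, was given to 5 of each genotype. Tissue came from animals 4 to 6 months old, taken 72 hours after LPS. The labels used here name neither the Cre driver that limits the deletion to astrocytes nor the genotype of the controls, and they give no sex. The question was how loss of Chd8 in astrocytes alters expression at rest and in neuroinflammation.

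All values come from 3 tables of group comparisons made by the authors, so levels of single mice and the depth of each library are unknown. Chd8 itself differed by 0.02 ± 0.05 (SE) on the log2 scale between cKO and control cortex after LPS in the authors' deposited table. Whole cortex also holds many cells other than astrocytes, so genotype is used here as labelled, without a check from Chd8 RNA. The cortical neuron markers Slc17a7, Tbr1 and Cux2 were present in all groups, and 0 of 7 blood markers were among the genes analysed. The groups also differed in sex-linked transcripts. Estimated from the authors' deposited tables, Ddx3y stood at a log2 CPM (count scaled to library size, on a log2 scale) of -7.19 in control saline, 3.68 in control LPS, 5.87 in cKO saline and 5.71 in cKO LPS. Xist stood at 7.47, 7.33, 4.35 and 5.91 in the same groups. After LPS, cKO minus control was 1.42 ± 1.70 (SE) for Ddx3y and -1.21 ± 1.76 for Xist. Sex-linked expression therefore cannot be told apart from treatment in controls, nor from genotype in the saline groups. Those groups enter the saline estimates and the difference of LPS responses given below. The part of sex in the results below was not tested.

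Basement membranes are thin protein sheets under endothelium and around pericytes, and in the brain the end-feet of astrocytes rest on them. Laminins assemble into a first network and collagen IV into another, and nidogens and the proteoglycans perlecan and agrin link them. Fibrillar collagens such as types I and III form the cables of the meninges and of the walls of larger vessels. Collagen chains are hydroxylated on proline and lysine and folded with the chaperone Hsp47 before they leave the endoplasmic reticulum.

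Collagen IV is encoded in head-to-head gene pairs, and the promoter windows of the abundant pair are shown because both genes rose in control cortex. RefSeq sequences on GRCm38.p6, from 250 bases before to 50 bases after the annotated start, were matched by symbol for 51 of the 72 members. The window of Col4a1 lies on the minus strand at chr8:11312777-11313076 and that of Col4a2 on the plus strand at chr8:11312555-11312854. Capitals mark the 78 bases that the windows share, read in opposite directions.
Col4a1: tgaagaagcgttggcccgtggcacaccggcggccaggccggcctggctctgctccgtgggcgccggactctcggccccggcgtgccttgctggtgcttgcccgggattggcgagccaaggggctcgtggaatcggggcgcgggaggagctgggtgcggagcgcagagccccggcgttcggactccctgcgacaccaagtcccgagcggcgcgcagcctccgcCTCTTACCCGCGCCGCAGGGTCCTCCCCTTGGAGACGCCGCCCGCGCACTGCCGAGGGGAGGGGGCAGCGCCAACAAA
Col4a2: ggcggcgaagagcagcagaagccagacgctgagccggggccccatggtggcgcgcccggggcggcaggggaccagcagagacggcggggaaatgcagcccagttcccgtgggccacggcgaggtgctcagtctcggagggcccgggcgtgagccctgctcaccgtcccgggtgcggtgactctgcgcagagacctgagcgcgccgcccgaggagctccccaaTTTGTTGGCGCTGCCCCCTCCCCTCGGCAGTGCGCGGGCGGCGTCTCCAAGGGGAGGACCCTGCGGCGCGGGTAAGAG
Col4a1 and Col4a2 overlap by 85 bases, against longest transcripts of 6615 and 6450 bases. Only reads from the shared bases need strand to be told apart. The libraries were stranded per the labels, and the sources used here do not say whether counting used strand. The windows hold 74% and 73.7% G or C.

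Col1a2 and Col3a1, fibrillar collagen genes that also rose in controls, have windows of other kinds. Capitals mark matches to the searched motifs, of which Col1a2 (plus strand, chr6:4505368-4505667) holds 2 of GGGCGG and 2 of CCAAT, and Col3a1 (plus strand, chr1:45311288-45311587) holds 1 of TATAAA.
Col1a2: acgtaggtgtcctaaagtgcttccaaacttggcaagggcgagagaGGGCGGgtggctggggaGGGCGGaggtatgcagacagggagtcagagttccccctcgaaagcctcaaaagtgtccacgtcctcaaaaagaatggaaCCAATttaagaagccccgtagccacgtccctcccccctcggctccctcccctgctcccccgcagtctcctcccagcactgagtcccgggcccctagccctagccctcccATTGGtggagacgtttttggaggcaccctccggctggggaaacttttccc
Col3a1: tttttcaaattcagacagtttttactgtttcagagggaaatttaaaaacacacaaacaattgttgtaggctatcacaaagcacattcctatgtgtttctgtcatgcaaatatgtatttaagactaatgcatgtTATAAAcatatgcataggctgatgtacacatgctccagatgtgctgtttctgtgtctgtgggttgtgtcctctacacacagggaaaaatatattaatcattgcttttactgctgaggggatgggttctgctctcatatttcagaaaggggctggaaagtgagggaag
The Col1a2 window has 61% G or C and that of Col3a1 37.7%. Both strands were searched for 5 motifs, none of which contains another. GGGCGG (the GC box) was found in windows of 37 of 51 members (72.5%), against 38.2% of all 27025 genes with a window. Those 27025 include genes outside the 13784 tested, whereas every member is a tested gene. The motif shares are thus not matched for expression in cortex, and its part was not tested. CCAAT was found in 19 of 51 (37.3%) against 41.1%, TATAAA in 4 of 51 (7.84%) against 15.7%, and the AP-1 form TGACTCA in 1 of 51 (1.96%) against 5.95%. A single form of the NF-kB site was searched. It had no match in the 51 members and was found in 0.466% of all genes. With so low a share in all genes, its absence from 51 windows cannot tell members from other genes. Other forms of the NF-kB site were not searched, so whether the members' windows hold them was not tested. A match is a description of the letters in these windows and shows no binding.

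After LPS, genes for perlecan, nidogen-1, fibronectin, the collagen IV chains Col4a1 and Col4a2 and the fibrillar chains Col1a1, Col1a2, Col3a1 and Col5a2 rose in control cortex. Of 72 members, 19 rose, by 1.2- to 2.85-fold, and 0 fell at a false discovery rate (FDR) below 0.05 by the authors' deposited table. Among all genes of that table, 6.46% rose and 3.31% fell. At an unadjusted p below 0.05 in the authors' F test, 31 members lay above 0 and 2 below, against 16.2% and 12.7% of all genes. The median log2 fold change of the members in the authors' deposited table was 0.23, against -0.00 for all genes. Member transcripts are rich in G and C (median 54.5% against 49.5% for all genes) and long (median 5643 against 3530 bases). A trend fitted jointly on GC and length over all genes had a median of 0.11 over the members. The parts of GC and of length were not separated. With the GC and length trend of all genes subtracted, 12 members rose (16.7%, against 4.34% of all genes) and 1 fell, while the split over all genes turned from 890 rises and 456 falls to 598 rises and 708 falls.

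**Figure D1:**
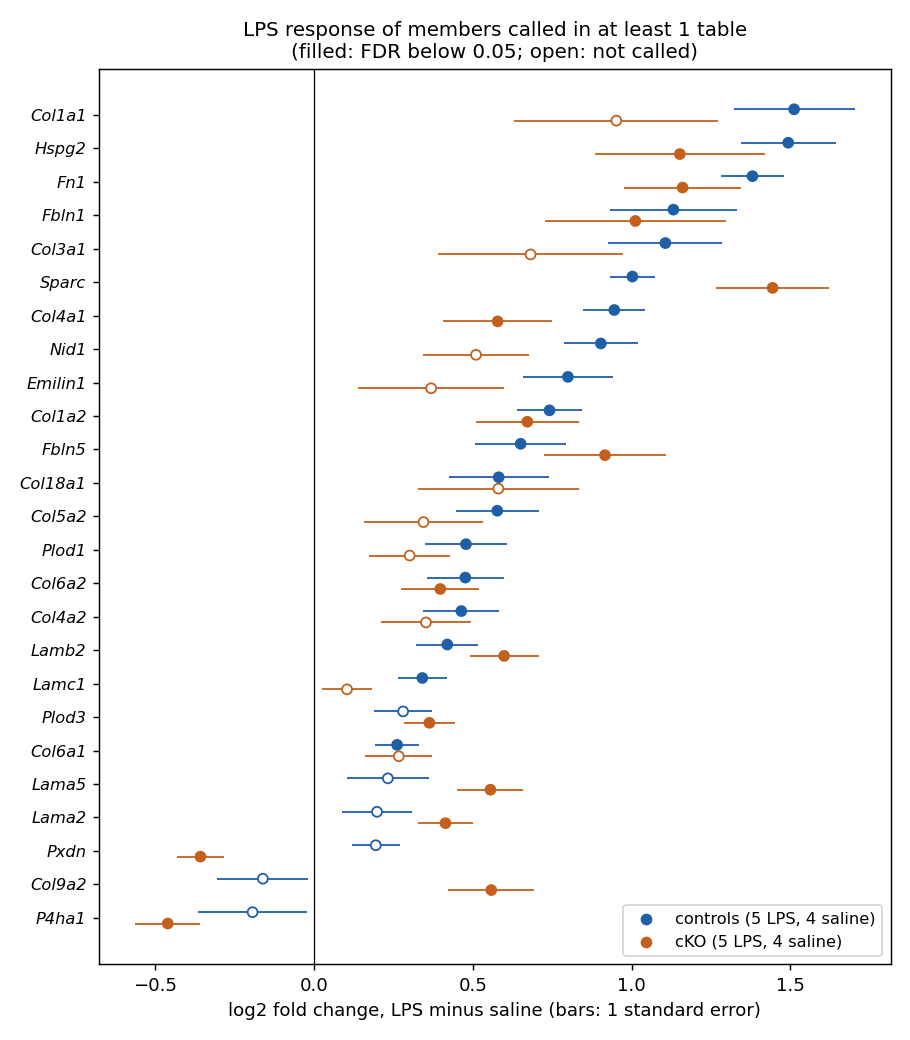
Log2 fold change of LPS over saline (horizontal axis, with 1 standard error) for the 25 members with an FDR below 0.05 in at least 1 of the authors' tables, in controls (blue) and cKO mice (orange); filled points passed. Col1a1, Hspg2 and Fn1 have the largest changes in controls and Sparc in cKO mice, and Pxdn and P4ha1 are the 2 members that fell, both in cKO mice.

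For scale in the role lists below, 6.46% of all genes rose and 3.31% fell in controls, and 10.9% and 8.52% did in cKO mice. No role list was tested against these shares. Of 6 linkers and proteoglycans of the basement membrane, 3 rose in controls, and 2 rose and 1 fell in cKO mice. Their median was the highest of the lists with more than 1 member (0.75 and 0.43). With the GC and length trend subtracted, the medians were 0.65 and 0.33, and fibrillar collagens stood higher in cKO mice (0.34). The linkers then held 3 rises in controls, and 1 rise and 2 falls in cKO mice. Hspg2 encodes perlecan, the heparan sulfate proteoglycan that bridges the laminin and collagen IV networks. Its estimated log2 CPM, from the authors' deposited tables, was 2.86 in control saline, 4.35 in control LPS, 2.81 in cKO saline and 3.97 in cKO LPS. Both LPS groups thus stood above both saline groups. In the authors' deposited tables Hspg2 rose by 1.49 ± 0.15 (SE) in controls (FDR = 0.000438) and by 1.15 ± 0.27 in cKO mice (FDR = 0.0195). The call in cKO mice ended with the GC and length trend subtracted (0.87, FDR = 0.0527).

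Sparc, a secreted collagen-binding glycoprotein, had the highest level per length of all members in control saline, at an estimated 39.4 CPM per kb of transcript. Its estimated log2 CPM rose from 6.50 to 7.51 in controls and from 6.20 to 7.64 in cKO mice, from the authors' deposited tables. The gain was 1.00 ± 0.07 in controls (FDR = 8.28e-05) and 1.44 ± 0.18 in cKO mice (FDR = 0.00387) in the authors' deposited tables. The difference between these gains was 0.44 ± 0.38 and did not pass (FDR = 0.88, normal test over all genes). With standard errors taken from F, as in the values above, it was 0.44 ± 0.19 and did not pass (FDR = 0.565).

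Nid1 encodes nidogen-1, which joins laminin to collagen IV. It rose by 0.90 ± 0.12 in controls (FDR = 0.00189) and had 0.51 ± 0.17 in cKO mice (FDR = 0.0562) in the authors' deposited tables. Estimated log2 CPM was 2.76 and 3.66 in control saline and LPS and 2.65 and 3.16 in cKO saline and LPS, from the authors' deposited tables. Its relative Nid2 had 0.60 ± 0.20 and 0.34 ± 0.16 in the authors' deposited tables and passed in neither. Agrn, the heparan sulfate proteoglycan agrin, ranked second per length at 25.1 CPM per kb. It had 0.12 ± 0.07 in controls and -0.04 ± 0.06 in cKO mice in the authors' deposited tables, and passed in neither. With the GC and length trend subtracted, Agrn passed as lower in cKO mice (-0.22, FDR = 0.0323).

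Pxdn encodes peroxidasin, the enzyme that makes the sulfilimine crosslinks of collagen IV, and its values in the genotypes had opposite signs. Estimated log2 CPM, from the authors' deposited tables, was 6.14 in control saline and 6.33 in control LPS, against 6.47 in cKO saline and 6.11 in cKO LPS. The highest of the 4 groups was thus cKO saline. The levels of cKO LPS and control saline were too close to rank, as back-calculated levels carry no error. In the authors' deposited tables Pxdn fell in cKO mice by 0.36 ± 0.07 (FDR = 0.0133) and had 0.19 ± 0.08 in controls (FDR = 0.125). The difference of the responses, cKO minus control, was -0.55 ± 0.14. It had the smallest p of any member in this test and did not pass over all genes (FDR = 0.241). With standard errors from F it was -0.55 ± 0.11 and did not pass either (FDR = 0.0951).

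All 4 collagen IV chains measured lay above 0 in controls, and 2 rose. Col4a1 and Col4a2, whose chains form the standard collagen IV trimer, had near-equal levels per length in control saline (7.70 and 7.89 CPM per kb). Col4a1 rose in controls from an estimated log2 CPM of 5.67 to 6.62 and in cKO mice from 5.73 to 6.30, from the authors' deposited tables. These are gains of 0.95 ± 0.10 (FDR = 0.000563) and 0.58 ± 0.17 (FDR = 0.042) in the authors' deposited tables. Col4a2 rose in controls by 0.46 ± 0.12 (FDR = 0.0407) and had 0.35 ± 0.14 in cKO mice (FDR = 0.106) in the authors' deposited tables. In both genotypes the gain estimated for Col4a1 was above that of Col4a2, its partner in the windows printed above. Whether the gains of these genes differ was not tested. The Col4a2 call in controls and the Col4a1 call in cKO mice ended with the GC and length trend subtracted (0.26, FDR = 0.184, and 0.40, FDR = 0.126).

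The X-linked pair Col4a5 and Col4a6, whose windows lie 842 bases apart, passed in neither comparison. Their values were 0.23 and 0.18 in controls and -0.03 and 0.15 in cKO mice in the authors' deposited tables. Of the collagens that carry glycosaminoglycan chains at basement membrane zones, Col18a1, the source of endostatin, rose by 0.58 ± 0.16 in controls (FDR = 0.0468) and had 0.58 ± 0.25 in cKO mice (FDR = 0.13) in the authors' deposited tables. Its call in controls ended with the trend subtracted (0.40, FDR = 0.13). Col15a1 had 0.28 ± 0.21 in controls and -0.07 ± 0.20 in cKO mice in the authors' deposited tables.

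Of 11 laminin chains, 9 lay above 0 in each genotype, with 2 risen in controls and 3 in cKO mice and none fallen (medians 0.23 and 0.24). Lamb2, the beta chain of vascular and synaptic laminins, rose in both, by 0.42 ± 0.10 in controls (FDR = 0.0313) and 0.60 ± 0.11 in cKO mice (FDR = 0.00933) in the authors' deposited tables. Lamc1, the gamma chain of most laminins, rose by 0.34 ± 0.08 in controls (FDR = 0.0279) and had 0.10 ± 0.08 in cKO mice (FDR = 0.364) in the authors' deposited tables. Lama2, the alpha chain of the laminin that astrocytes and pericytes deposit, rose by 0.41 ± 0.09 in cKO mice (FDR = 0.0146) and had 0.20 ± 0.11 in controls in the authors' deposited tables. Lama5, an endothelial alpha chain, rose by 0.56 ± 0.10 in cKO mice (FDR = 0.0104) and had 0.23 ± 0.13 in controls in the authors' deposited tables.

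For none of these chains did the difference between genotypes pass (FDR between 0.81 and 0.923 for the 4 named). Lama4, the other endothelial alpha chain, had 0.58 ± 0.17 in controls (FDR = 0.0638) and 0.19 ± 0.12 in cKO mice in the authors' deposited tables. Both laminin calls in controls ended with the trend subtracted (Lamb2 0.25, FDR = 0.125, and Lamc1 0.20, FDR = 0.125), as did that of Lama5 in cKO mice (0.31, FDR = 0.07). The Lama5 value in controls turned to -0.07 there (FDR = 0.755). Lamb2 and Lama2 passed in cKO mice there.

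Fibronectin, fibulins, fibrillins and emilins gave 4 rises of 9 in controls and 3 in cKO mice, with no fall. Fn1, the adhesive glycoprotein fibronectin, had the lowest FDR of the members in controls together with Sparc. Its estimated log2 CPM went from 5.26 to 6.64 in controls and from 5.22 to 6.38 in cKO mice, from the authors' deposited tables. The rises were 1.38 ± 0.10 (FDR = 8.28e-05) and 1.16 ± 0.18 (FDR = 0.00654) in the authors' deposited tables, and both passed with the trend subtracted. Fbln1, a fibulin of basement membranes and elastic fibres, rose by 1.13 ± 0.20 in controls (FDR = 0.0107) and by 1.01 ± 0.28 in cKO mice (FDR = 0.0358) in the authors' deposited tables. The Fbln1 call in cKO mice ended with the trend subtracted (0.90, FDR = 0.0565).

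Fbln5, which guides elastic fibre assembly, rose by 0.65 ± 0.14 in controls (FDR = 0.0266) and by 0.92 ± 0.19 in cKO mice (FDR = 0.0145) in the authors' deposited tables. Emilin1, an elastin microfibril glycoprotein, rose by 0.80 ± 0.14 in controls (FDR = 0.0109) and had 0.37 ± 0.23 in cKO mice (FDR = 0.278) in the authors' deposited tables. The other 5 genes of this list, Emilin2, Fbln2, Fbln7, Fbn1 and Fbn2, ran from -0.37 to 0.38 in controls and from 0.04 to 0.30 in cKO mice in the authors' deposited tables, and none passed.

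Among fibrillar collagens, both type I genes, the type III gene and 1 of the 3 type V genes measured rose in controls (4 of 10). Col1a1 had the largest member fold change in controls, and its estimated log2 CPM went from 1.94 to 3.45 in controls and from 1.81 to 2.76 in cKO mice, from the authors' deposited tables. It rose by 1.51 ± 0.19 in controls (FDR = 0.0017) and had 0.95 ± 0.32 in cKO mice (FDR = 0.0636) in the authors' deposited tables. Its partner chain Col1a2 rose in both, by 0.74 ± 0.10 in controls (FDR = 0.00328) and 0.67 ± 0.16 in cKO mice (FDR = 0.0221) in the authors' deposited tables. The Col1a2 call in cKO mice ended narrowly with the trend subtracted (0.53, FDR = 0.0506).

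Col3a1 and Col5a2 are neighbours on chromosome 1. Col3a1 rose by 1.11 ± 0.18 in controls (FDR = 0.00742) and had 0.68 ± 0.29 in cKO mice (FDR = 0.123) in the authors' deposited tables. Col5a2 rose by 0.58 ± 0.13 in controls (FDR = 0.0284) and had 0.34 ± 0.19 in cKO mice (FDR = 0.214) in the authors' deposited tables. The remaining 6 fibrillar genes passed in neither genotype and ran from -0.35 (Col11a2) to 0.20 (Col5a3) in controls and from -0.30 (Col11a2) to 1.13 (Col5a3) in cKO mice in the authors' deposited tables. Col5a3 in cKO mice, at 1.13 ± 0.41 (FDR = 0.0792), was near the highest member values there in the authors' deposited table. The list median in controls turned from 0.18 to -0.03 with the GC and length trend subtracted, although the 4 rises passed there. Col11a2 then passed as lower in controls (-0.56, FDR = 0.0217) and in cKO mice (-0.50, FDR = 0.0375).

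**Figure D2:**
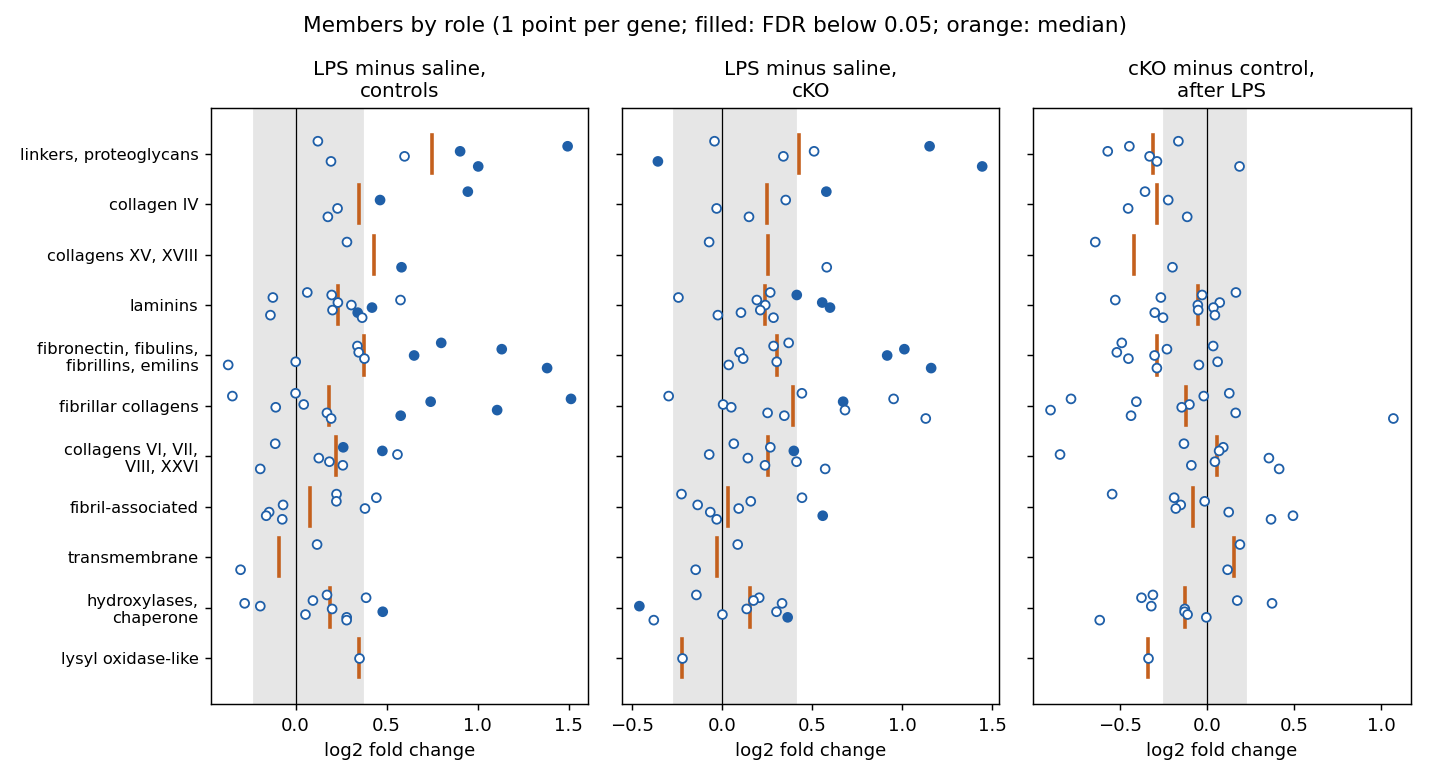
Log2 fold changes (horizontal axes) of the 71 members with a role list in the 3 comparisons, 1 point per gene, filled where the FDR was below 0.05; orange lines are list medians and the grey band holds the middle 80% of all 13784 genes. In controls the filled points reach from 0.26 (Col6a1) to 1.51 (Col1a1), and no point is filled in the comparison of cKO with control mice after LPS.

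Of the list with types VI, VII, VIII and XXVI, 2 of 8 rose in controls, against 6.46% of all genes. In cKO mice 1 of 8 rose, near the 10.9% of all genes. Col6a1 and Col6a2, chains of the beaded filaments of collagen VI, rose by 0.26 ± 0.07 (FDR = 0.0453) and 0.48 ± 0.12 (FDR = 0.0397) in controls in the authors' deposited table. In cKO mice Col6a2 rose by 0.40 ± 0.12 (FDR = 0.0488) and Col6a1 had 0.27 ± 0.11 (FDR = 0.101) in the authors' deposited table. All 3 of these calls ended with the trend subtracted (Col6a1 0.15, FDR = 0.181; Col6a2 0.36, FDR = 0.0882 in controls and 0.27, FDR = 0.154 in cKO mice).

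Of 8 fibril-associated collagens, none passed in controls. Col9a2, a chain of cartilage-type collagen IX, rose in cKO mice by 0.56 ± 0.14 (FDR = 0.0229) and had -0.16 ± 0.14 in controls in the authors' deposited tables. Its call in cKO mice ended with the trend subtracted (0.42, FDR = 0.0592), and the difference between the genotypes did not pass (0.72 ± 0.24, FDR = 0.433). The median of this list also turned sign with the trend subtracted, from 0.08 to -0.04 in controls and from 0.03 to -0.10 in cKO mice. Neither transmembrane collagen passed. Col25a1, the more abundant and largely neuronal, had -0.30 ± 0.13 in controls (FDR = 0.17) and -0.15 ± 0.08 in cKO mice in the authors' deposited tables.

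Genes for the enzymes that modify collagen passed less often than the linkers by count, although that contrast between lists was not tested. Of 10 hydroxylase and chaperone genes, 1 rose in controls, where 9.76% of all genes passed in either direction. In cKO mice 1 rose and 1 fell, where 19.5% of all genes passed. The list thus passed about as often as all genes. Plod1, a lysyl hydroxylase of collagen helices, rose by 0.48 ± 0.13 in controls (FDR = 0.0474) in the authors' deposited table. It did not pass with the trend subtracted (0.40, FDR = 0.0797). Plod3, a lysyl hydroxylase that also glycosylates, rose by 0.36 ± 0.08 in cKO mice (FDR = 0.0164) and had 0.28 ± 0.09 in controls (FDR = 0.08) in the authors' deposited tables. The Plod3 call ended with the trend subtracted (0.23, FDR = 0.0705).

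P4ha1, the catalytic subunit of prolyl hydroxylase, fell by 0.46 ± 0.10 in cKO mice (FDR = 0.0174) in the authors' deposited table. Its estimated log2 CPM was 6.05 in control saline, 5.86 in control LPS, 6.03 in cKO saline and 5.57 in cKO LPS, from the authors' deposited tables. Both LPS groups were below both saline groups, and the value in controls was -0.19 ± 0.17 (FDR = 0.493) in the authors' deposited table. Serpinh1, the collagen chaperone Hsp47, had 0.28 ± 0.12 in controls (FDR = 0.145) and -0.38 ± 0.17 in cKO mice (FDR = 0.143) in the authors' deposited tables. Loxl3, the single lysyl oxidase gene measured, had 0.35 ± 0.20 and -0.22 ± 0.17 in the authors' deposited tables. Col4a3bp had -0.11 ± 0.06 and -0.07 ± 0.06 in the authors' deposited tables.

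Over all roles, the authors' deposited table for cKO mice held 13 rises and 2 falls among the 72 members, against 10.9% and 8.52% of all genes, and the member median was 0.22. At an unadjusted p below 0.05, 25 members lay above 0 and 2 below, against 19.1% and 16.7% of all genes. With the GC and length trend subtracted, 5 rose and 4 fell, against 967 rises and 1341 falls over all genes in place of 1506 and 1175. The members' share of rises was then 6.94%, next to 7.02% of all genes. The 5 were Sparc, Fn1, Fbln5, Lama2 and Lamb2. Of the members that rose, 9 did so in both genotypes, which is 47.4% of the 19 in controls and 69.2% of the 13 in cKO mice. These were Sparc, Fn1, Hspg2, Fbln1, Fbln5, Col4a1, Col1a2, Lamb2 and Col6a2. The same overlap over all genes is not given here, so it is not shown to be particular to the members. The comparisons share no mouse, and over the 72 members their fold changes had a Pearson r of 0.68 and a Spearman rho of 0.57, against 0.68 and 0.63 over all genes. These are descriptions across genes, which are not independent replicates.

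The genotypes' LPS responses differed past the threshold for 0 of the 72 members, with standard errors taken from the deposited p-values or from F. Over all genes it passed for 0.00725% by either route. At an unadjusted p below 0.05 the normal test gave 2 members with a larger response in cKO mice and 4 with a smaller one (3.02% and 3.5% of all genes), and the test with standard errors from F gave 4 and 5 (3.84% and 4.63% of all genes). So the 10 members that passed in controls and not in cKO mice, and the 4 rises of the opposite kind, are not shown to differ.

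**Figure D3:**
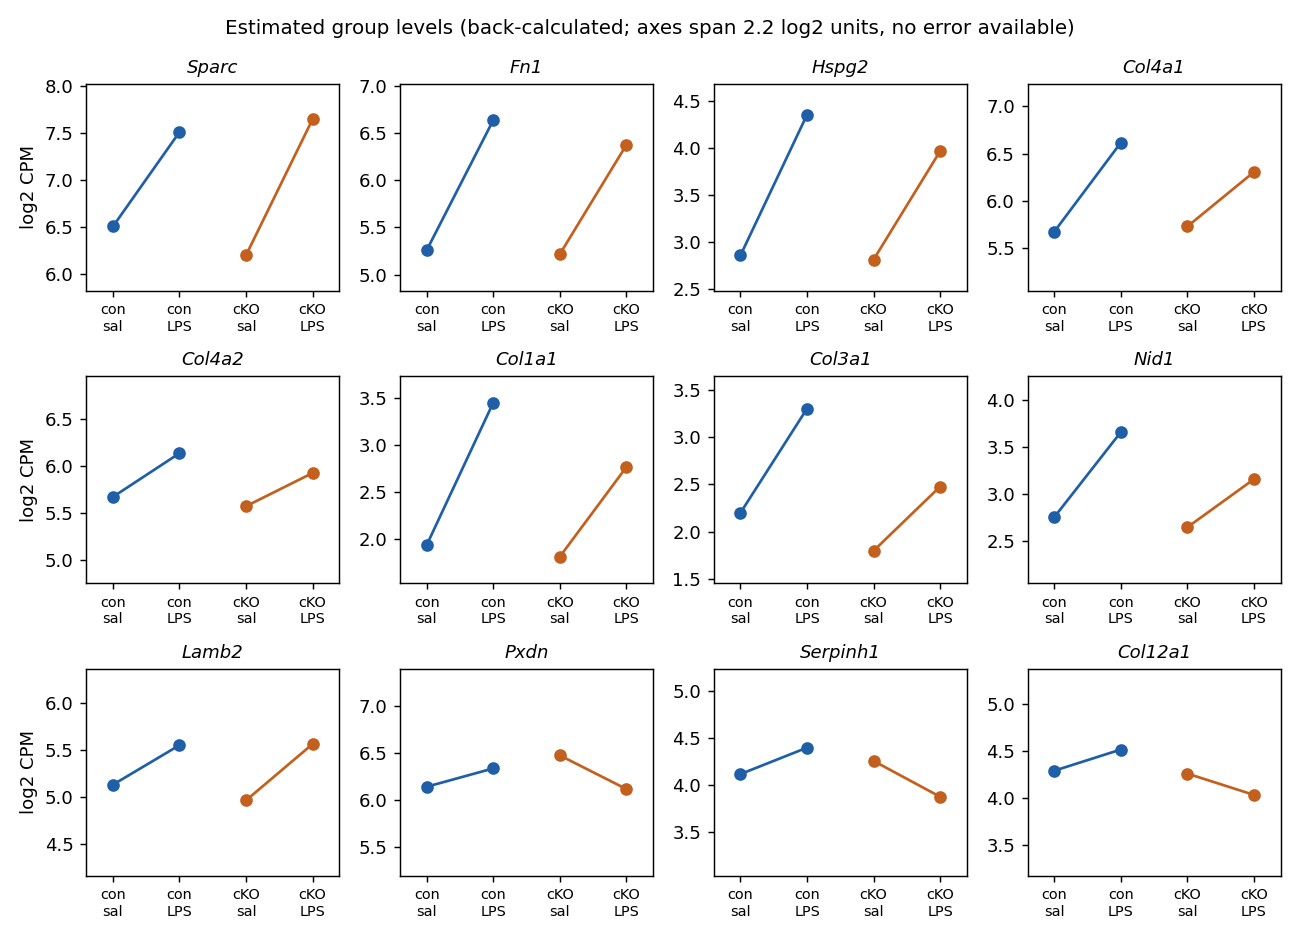
Estimated log2 CPM (vertical axes, all spanning 2.2 log2 units) of 12 members in control saline, control LPS, cKO saline and cKO LPS, back-calculated from the authors' fold changes and mean levels, with lines joining the groups of a genotype and no error available. Hspg2, Fn1 and Sparc climb in both genotypes, and the lines of Pxdn, Serpinh1 and Col12a1 slope upward in controls and downward in cKO mice.

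After LPS, cKO and control cortex were compared directly, in 5 mice each. No member passed in the authors' deposited table (0 of 72), where 0.00725% of all genes did, as a single lower gene. At an unadjusted p below 0.05, 14 members were lower in cKO mice and 1 was higher, which is 19.4% and 1.39% of members against 6.33% and 5.98% of all genes in that table. In all, 49 members lay below 0 and 23 above, with a median of -0.13 against 0.00 for all genes. This comparison shares its LPS mice with the comparisons above. In the saline groups the untested estimate computed from the 3 tables was below 0 for 52 of 72 members (median -0.08). Of all 13784 genes, 6513 lay below 0 in that estimate (median 0.0045). The imbalance of Ddx3y and Xist given above enters this estimate, and its part was not tested.

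The smallest p belonged to Col12a1, a collagen that coats type I fibrils, and Serpinh1. Col12a1 was at -0.55 ± 0.12 (95% interval -0.83 to -0.26, p = 0.00184, FDR = 0.237) in the authors' deposited table. Serpinh1 was at -0.62 ± 0.14 (95% interval -0.94 to -0.30, p = 0.00195, FDR = 0.237) in the authors' deposited table. Their estimates after saline were -0.09 and 0.04.

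Among the fibrillar genes, Col1a1 was at -0.78 ± 0.23 (95% interval -1.30 to -0.27, FDR = 0.291) and Col3a1 at -0.90 ± 0.29 (95% interval -1.56 to -0.24, FDR = 0.312) in the authors' deposited table. Both stood lower in cKO mice after saline too, at estimates of -0.22 and -0.47. Of the basement membrane genes, Nid1 was at -0.57 ± 0.17, Lama4 at -0.53 ± 0.17, Lamc1 at -0.30 ± 0.10, Pxdn at -0.29 ± 0.08 and Agrn at -0.16 ± 0.06, each with an FDR between 0.291 and 0.334 in the authors' deposited table. Their estimates after saline were -0.18, -0.14, -0.06, 0.26 and 0.00. Col9a2 was the member above 0 at 0.49 ± 0.16 (95% interval 0.14 to 0.85, FDR = 0.306) in the authors' deposited table, and its estimate after saline was -0.23. The other 5 of the 15, Col6a3, Fbln2, Col15a1, P4ha1 and Col1a2, ran from -0.84 to -0.32 in the authors' deposited table. Col5a3 had the highest value, 1.07 ± 0.48, with a 95% interval of -0.02 to 2.16 (FDR = 0.411) in the authors' deposited table.

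All 4 collagen IV chains lay below 0 (median -0.29), as did both collagens with glycosaminoglycan chains (median -0.42) and 5 of 6 linkers (median -0.31), with Sparc at 0.19 ± 0.19 as the exception in the authors' deposited table. Laminins were divided, with 7 of 11 below 0 (median -0.05). These list medians kept their sign with the GC and length trend subtracted.

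**Figure D4:**
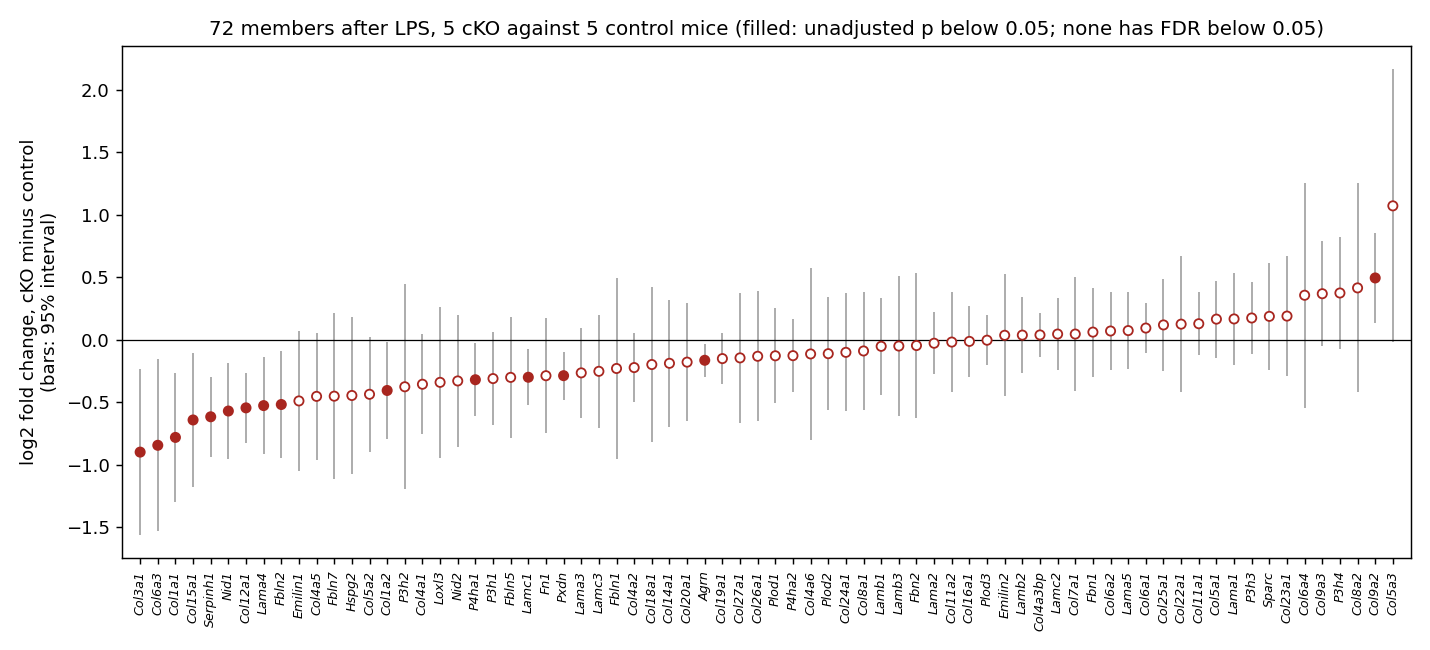
Log2 fold change between cKO and control cortex after LPS (vertical axis, with 95% intervals) for the 72 members in order of size; filled points have an unadjusted p below 0.05. The 15 filled points comprise 14 below 0 and Col9a2 above it, and none of the 72 had an FDR below 0.05.

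Markers of vascular cells moved in these comparisons, and no measured marker of any list was at 0. As a scale for the counts, 6.46% of all genes rose and 3.31% fell in controls, and 10.9% and 8.52% did in cKO mice. No marker list was tested against these shares. In the authors' deposited tables, 14 of 16 endothelial genes rose after LPS in controls and 8 in cKO mice, among them Pecam1 and Cldn5. Their summed estimated level went from 282 to 438 CPM in controls and from 289 to 399 CPM in cKO mice. Of 12 pericyte and smooth muscle genes, 2 rose in each genotype, and the sum went from 252 to 305 and from 240 to 268 CPM. Of 12 fibroblast and meninges genes, 3 rose and 1 fell in controls and 1 fell in cKO mice, with sums of 176 and 189 CPM in controls and 167 and 178 CPM in cKO mice. Much of these sums came from Pdgfra, also an oligodendrocyte precursor marker, and Igfbp2, the gene that fell. The other 10 fibroblast markers summed to 79.6 and 108 CPM in controls and 76.9 and 102 CPM in cKO mice. After LPS, 14 of 16 endothelial, 10 of 12 pericyte and 8 of 12 fibroblast markers lay below 0 in cKO against control mice in the authors' deposited table. So did 9 of 10 microglia and macrophage markers (median -0.31), while 4 of 4 choroid plexus markers lay above 0 (median 0.79). Astrocyte markers lay above 0 for 7 of 12 (median 0.20). Oligodendrocyte and cortical neuron markers lay below 0 for 5 of 9 and 7 of 10 (medians -0.06 and -0.05). No marker of these lists passed. The part of these markers in the results was not tested, and in bulk tissue more cells of a type and more RNA per cell cannot be told apart.

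Choroid plexus genes went the other way after LPS. Of 4 measured, all lay below 0 in both genotypes without passing, and their sum went from 118 to 13.5 CPM in controls and from 120 to 25.3 CPM in cKO mice. Ttr, at -4.03 ± 1.96 in controls and -2.83 ± 1.86 in cKO mice in the authors' deposited tables, made up most of that sum. The other 3 genes went from 12.7 to 7.01 CPM in controls and from 12.0 to 10.1 CPM in cKO mice. Of 10 microglia and macrophage genes, 8 rose in controls and 5 rose and 1 fell in cKO mice, with sums of 283 and 433 CPM in controls and 285 and 353 CPM in cKO mice. Of 12 astrocyte markers, 1 rose and 3 fell in controls and 4 fell in cKO mice. Their sums were 4354 and 4220 CPM in control saline and LPS, and 5023 and 4502 CPM in cKO saline and LPS. Slc1a2 weighed most in these sums, at an estimated log2 CPM of 11.2, 11.1, 11.4 and 11.1 in the same groups.

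Other genes of the matrix pathway were counted by the same threshold. For scale, 6.46% of all genes rose and 3.31% fell in controls, and 10.9% and 8.52% did in cKO mice. None of the lists below was tested against these shares. Of 6 small leucine-rich proteoglycans, which bind collagen fibrils and of which Dcn, Lum and Ogn also stand in the fibroblast list, 4 rose in controls and 3 in cKO mice in the authors' deposited tables. The largest rises were those of Prelp in controls (1.01 ± 0.23, FDR = 0.029) and Fmod, fibromodulin, in cKO mice (1.12 ± 0.20, FDR = 0.00924) in the authors' deposited tables. Of 16 other genes for collagen folding, export and propeptide cleavage, 3 rose in controls, led by the procollagen enhancer Pcolce (0.66 ± 0.17, FDR = 0.039), in the authors' deposited table. In cKO mice 2 of the 16 rose, led by Bmp1, a procollagen C-proteinase (0.32 ± 0.09, FDR = 0.034), and 1 fell, the export coat gene Sec23a (-0.23 ± 0.06, FDR = 0.034), in the authors' deposited table.

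Of 15 matrix proteases and inhibitors, 1 rose in controls, near the 6.46% of all genes. It was the membrane-bound collagenase Mmp14 (0.60 ± 0.14, FDR = 0.031) in the authors' deposited table. In cKO mice 2 rose and 2 fell, against 10.9% and 8.52% of all genes. The largest were Timp3, a matrix-bound inhibitor, at 0.48 ± 0.14 (FDR = 0.041) and Mmp16 at -0.39 ± 0.06 (FDR = 0.006) in the authors' deposited table. Of 9 basement membrane receptors outside the integrins, 1 rose and 1 fell in controls and 2 rose and 2 fell in cKO mice. The laminin receptor Bcam had the largest rise in both, at 0.38 ± 0.11 (FDR = 0.049) and 0.61 ± 0.15 (FDR = 0.024) in the authors' deposited tables. The largest falls were those of the syndecan Sdc4 in controls (-0.21 ± 0.05, FDR = 0.041) and of the agrin receptor Lrp4 in cKO mice (-0.51 ± 0.08, FDR = 0.007) in the authors' deposited tables.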

How the data were processed

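The members, gene lists and tests were chosen with earlier results of these data known. Cortex RNA from 18 mice was sequenced from ribosome-depleted stranded libraries, per the labels' protocols. The submitters' processing notes name cutadapt 3.5, STAR, RSEM, edgeR 3.30.3 and GRCm39, without role or order. How genes were filtered is not known here. The deposited tables hold, per the file headers, log2 fold changes, mean log2 CPM levels, F scores, p-values and FDR values for every gene. Replicates were mice as labelled. Values per library were not used here, so depth is unknown and no library could be left out.

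The Benjamini-Hochberg adjustment recomputed from the p-values matched the deposited FDR. Fold-change directions were taken as LPS minus saline and cKO minus control: group levels back-calculated from 2 tables then differed by an SD over genes of at most 0.0537, against 0.226 or more with a sign turned. Group levels assume equal library weights, and those of LPS groups come from the LPS comparisons. Standard errors are the absolute fold change over the root of F, and intervals use degrees of freedom solved from F and p together (8.66 to 9.85). A gene was called at an FDR below 0.05. The difference of LPS responses was tested with standard errors from the normal quantile of each p-value, adjusted over 13784 genes (numpy 2.4.6, scipy 1.17.1). On simulated data for that difference (13784 genes, 200 changed, 20 runs) it recovered 25.3%, 73.1% and 94.8% of genes changed by 0.5, 1 and 2 on the log2 scale. The changed genes were drawn from all genes, with the standard errors from F taken as true. Recovery among the members was not measured and falls for genes with larger errors.

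The alternatives were FDR thresholds of 0.01 and 0.1, a minimum fold change of 1.5, a mean log2 CPM of at least 1, the median of all genes subtracted, a quadratic GC and length trend subtracted (longest GENCODE M21 transcript per gene, matched for 72 members and 99.6% of all genes) and standard errors from F. Levels per kb use the same lengths. Named were members called in a table (at most 6 per role list), the 10 with the smallest p between genotypes, the most abundant of a list without calls, and the largest called rise and fall of each other pathway list. Col11a2, Col5a3, Nid2, Col4a5, Col4a6, Col15a1 and Col4a3bp were named after their values were seen. Marker sums without Ttr, or without Pdgfra and Igfbp2, were added after the data were seen.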

Additional observations from a re-analysis of the deposited data

How the results depend on the processing

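The 19 rises in controls became 8 at an FDR of 0.01, 11 with a minimum fold change of 1.5 and 12 with the GC and length trend subtracted, against 1.65%, 3.32% and 4.34% of all genes (11.1%, 15.3% and 16.7% of members). The 0 falls in controls became 1 at an FDR of 0.1 and 1 with that trend subtracted (Col11a2). In cKO mice the 13 rises became 3 at an FDR of 0.01, 7 with a minimum fold change of 1.5 and 5 with the trend subtracted (4.17%, 9.72% and 6.94% of members), against 1.99%, 4.03% and 7.02% of all genes. The 2 falls became 0, 0 and 4 under these settings, against 1.24%, 0.675% and 9.73% of all genes. The other settings left each of these counts within 1.5 times its value. Of 85 values of named members, 15 calls ended and 3 arose with the trend subtracted, and no call changed with the median of all genes subtracted or with genes of a mean log2 CPM below 1 left out. The 0 members that differed between genotypes after LPS, or in their LPS response, stayed 0 under each alternative run. The cause of the loss under the trend was not tested. Leaving out single mice was not run because values per library were not used here. No paired analysis was possible because the values used here are comparisons between groups.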
